A study of Mus musculus with 35 samples.

Results

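Genes that mark macrophages were followed as gene rows through the RNA-seq count tables of mouse testis fractions, 10 of 24411 gene rows in all. The 10 genes were Csf1r, Cd68, Cd163, Mrc1, C1qa, C1qb, C1qc, Lyz2, Ctss and Adgre1, chosen by name, and every one of them had a row in every table. The libraries came from adult mice on a mixed C57Bl/6J and SV129 background. The knockouts (cKO) were Smg6(fx/fx);Ngn3Cre+ mice, in which a floxed exon of Smg6, the endonuclease of nonsense-mediated decay, is removed by Cre driven from the Neurogenin 3 promoter in germ cells soon after birth. The controls (CTRL) were Cre-negative littermates, Smg6(fx/fx);Ngn3Cre– or Smg6(fx/wt);Ngn3Cre–, so every mouse carried at least 1 floxed allele. Pachytene spermatocytes (Spc) and round spermatids (RS) had been enriched by sedimentation of enzymatically dispersed testis cells through an albumin gradient, with 3 cKO and 3 CTRL libraries each. Chromatoid bodies (CB), the RNA granules of spermatids, had been pulled down with an antibody to DDX4 from fixed testis cells of pooled mice, with 3 cKO and 4 CTRL libraries.

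Macrophages are the main resident immune cells of the testis interstitium, where they lie beside Leydig cells, and a further population lies on the tubule wall. CSF1R is the receptor for the growth factors CSF1 and IL34, on which macrophages depend. C1QA, C1QB and C1QC are the chains of C1q, the recognition part of the classical complement pathway, and are made as a set by tissue macrophages. MRC1 and CD163 are scavenger receptors of resident macrophages, LYZ2 and CTSS are a bacteriolytic enzyme and a lysosomal protease, CD68 is a lysosomal membrane glycoprotein, and ADGRE1 carries the F4/80 epitope. The protocols name no step that removes macrophages from the Spc and RS fractions.

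The Spc and RS libraries held between 36419197 and 47355837 gene counts, and the CB libraries between 2705277 and 12103906. Levels are given as CPM, counts per 1000000 gene counts of a library, after TMM scaling, with Spc and RS scaled together and CB apart, because CB libraries were made with another kit. The replicates differed by more than sampling noise in every group. For Smg6 itself the log2 fold change of cKO against CTRL was 0.22 in Spc (adjusted p = 0.361), -0.01 in RS (adjusted p = 0.968) and -0.03 in CB (adjusted p = 0.907, edgeR), but these counts cover the whole gene and do not check the deleted exon. Of 8 spermatocyte markers the summed level was 2062 to 2437 CPM in control Spc and 572 to 638 CPM in control RS, and of 6 spermatid markers it was 712 to 1191 CPM and 3477 to 3701 CPM. In cKO RS the spermatocyte sum was 913 to 1077 CPM and the spermatid sum 1012 to 1187 CPM, and the part of this shift in the member levels was not tested. In such bulk fractions more cells of a type and more RNA per cell cannot be told apart.

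The members lie apart in the genome except for the C1q chains. C1qb, C1qc and C1qa follow each other on the minus strand of chromosome 4 (GRCm38), from C1qb at 136880129 to C1qa at 136898803. Mrc1 spans chr2:14229392-14332057 on the plus strand, and Adgre1 spans chr17:57358691-57483527 on the plus strand. In GENCODE vM21 the exons of 9 members overlapped no other gene, and those of Csf1r overlapped Hmgxb3 on the opposite strand, which the strand-specific counting separates. RefSeq promoter sequence (GRCm38.p6, 250 bases before to 50 after the start) was at hand for 7 of the 10 members. PU.1, the ETS factor of macrophage differentiation, binds sites built around the letters AGGAAGT. These letters, on either strand, occurred in 5 of the 7 member promoters and in 9.35% of all 32851 promoters of that length. They are shown because both the gene that moves against the rest in Spc (Mrc1) and genes that rise there (C1qb, C1qc, Lyz2, Ctss) hold them. Each line below runs 5′ to 3′ on the strand of the gene, with the match in capitals, here always as the reverse complement ACTTCCT.
Mrc1, chr2:14229192-14229220: cacttctccccACTTCCTgcgttttctcc
C1qb, chr4:136886236-136886264: caggacctgaaACTTCCTgagggcagcag
C1qc, chr4:136893092-136893120: ggacggcagacACTTCCTcattttggcac
Lyz2, chr10:117282355-117282383: gatcggtaggaACTTCCTgttttgcacac
Ctss, chr3:95526773-95526801: aatgaaagttcACTTCCTcattgtggatg
The match began 211 bases before the RefSeq start in Mrc1, 195 in C1qc, 100 in Lyz2, 53 in C1qb and 2 in Ctss. These RefSeq starts need not be the ends of the gene spans given above. A match of letters is a description of the sequence, and binding was not measured.

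In cKO spermatocytes 8 of the 10 genes were called higher than in CTRL, and Mrc1 was lower. Genes were called where edgeR's quasi-likelihood test gave an adjusted p of at most 0.05 and the size of the log2 fold change reached 1.5. Over all 17321 genes tested 3.41% were called higher and 5.10% lower. Csf1r was at 11.7, 9.22 and 12.8 CPM in the 3 cKO libraries and at 3.61, 2.42 and 1.78 CPM in the 3 CTRL libraries. The groups did not overlap, and the log2 fold change was 2.00 ± 0.29 (SE, adjusted p = 0.00569). Lyz2 was at 23.1, 10.8 and 19.7 CPM against 5.47, 2.20 and 2.15 CPM. Its lowest cKO library was above its highest control, with a log2 fold change of 2.33 ± 0.45 (adjusted p = 0.0128). Cd163, the haemoglobin scavenger receptor, rested on few reads, 57 to 113 counts in cKO and 10 to 20 in CTRL, and rose by 2.50 ± 0.43 (adjusted p = 0.00904). Cd68 rose by 1.59 and Ctss by 1.86 on the log2 scale. Of the C1q chains C1qa rose by 2.17, C1qc by 2.11 and C1qb by 1.56. Adgre1 was at 5.74, 6.23 and 5.58 CPM in cKO and at 3.80, 2.59 and 2.07 CPM in CTRL. These groups did not overlap either, but the log2 fold change of 0.94 ± 0.26 (adjusted p = 0.0370) was under the size needed for a call. In all, 9 members had every cKO library above every control library, which 30.7% of all genes tested had. Without cKO library 1 only 4 genes were called higher, and Cd68, C1qb, Lyz2 and Ctss were not. C1qb was also not called without cKO library 3 or without CTRL library 2 or 3, and Ctss not without CTRL library 3.

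**Figure D1:**
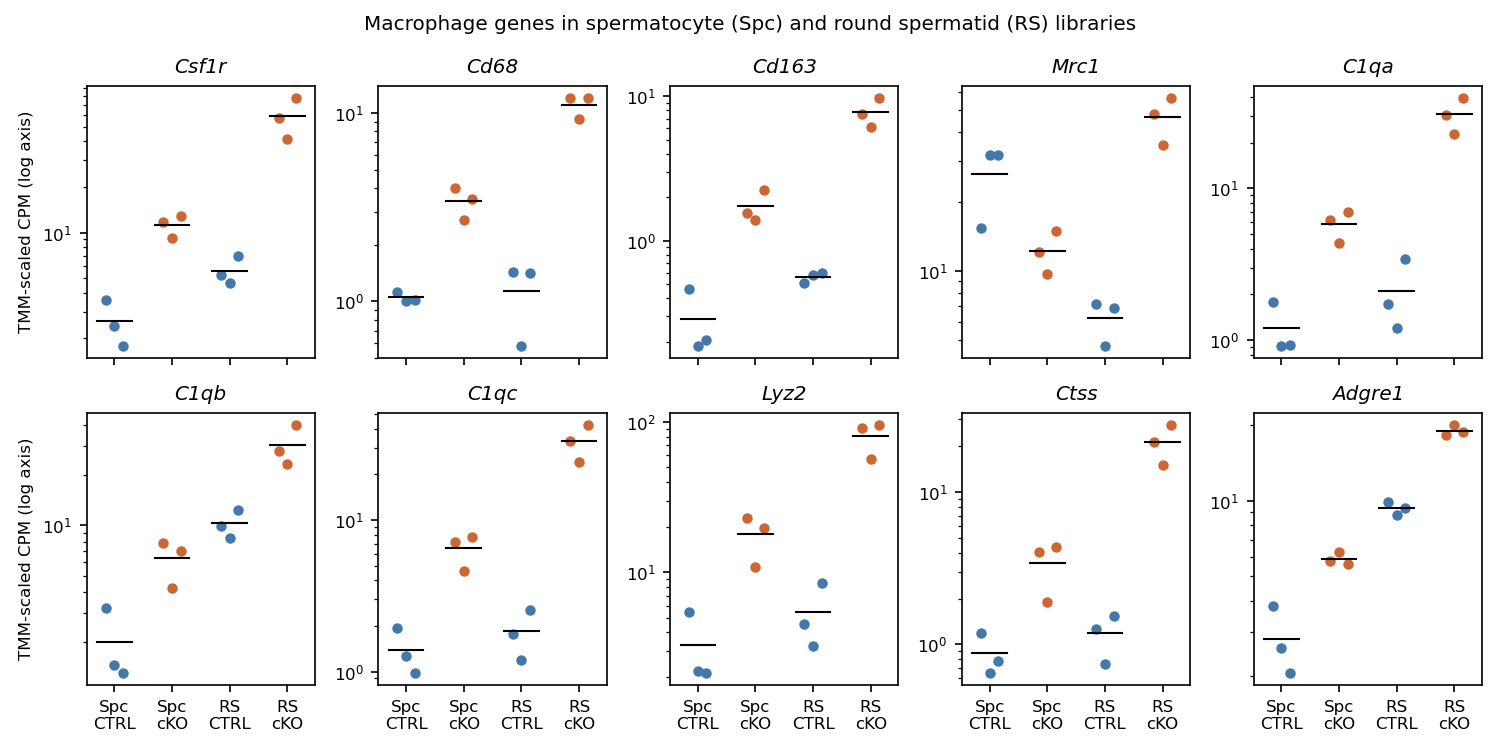
Level of each gene in every Spc and RS library, in TMM-scaled CPM on log axes of their own. Points are libraries (blue, CTRL; orange, cKO) and bars are group means of 3. Every gene is highest in cKO RS, and Mrc1 alone is lower in cKO Spc than in CTRL Spc.

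In cKO round spermatids all 10 members had a positive log2 fold change, Mrc1 included. Called higher were 9 of 10 genes, against 14.8% of the 17492 genes tested, while 11.6% of all genes were called lower. Csf1r was at 56.6, 41.6 and 76.8 CPM in cKO and at 5.25, 4.61 and 6.98 CPM in CTRL. No cKO library came near the controls, and the log2 fold change of 3.39 ± 0.26 (adjusted p = 1.09e-05) was a 10.5-fold difference. Lyz2, the most abundant member per length, was at 91.1, 56.7 and 95.4 CPM against 4.54, 3.22 and 8.46 CPM. It rose by 3.92 ± 0.36 (adjusted p = 3.32e-05). Ctss was at 21.5, 15.2 and 27.5 CPM against 1.25, 0.741 and 1.55 CPM, a log2 fold change of 4.19 ± 0.32 (adjusted p = 1.18e-05). C1qa rose by 3.88 and C1qc by 4.19, Cd163 by 3.80 and Cd68 by 3.29 on the log2 scale. C1qb, by contrast, rose by 1.58 ± 0.23 (adjusted p = 3.94e-04) from control libraries at 9.94, 8.41 and 12.4 CPM. Those controls lay well above the controls of C1qa at 1.73, 1.19 and 3.42 CPM and of C1qc at 1.76, 1.19 and 2.57 CPM. In cKO the chains were close to each other, at 27.9, 23.3 and 39.9 CPM for C1qb and 30.5, 22.8 and 39.2 CPM for C1qa. Adgre1 was at 18.2, 20.0 and 18.8 CPM against 9.91, 8.77 and 9.38 CPM. It changed by 1.04 ± 0.12 (adjusted p = 9.96e-05), under the size of a call. All 10 members had every cKO library above every control library, as 40.0% of the genes tested did. The call of C1qb was lost without cKO library 3 (1.38) or CTRL library 2 (1.45), where the adjusted p stayed under 0.05.

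The difference between both genotype effects was tested directly, as the log2 fold change in RS minus that in Spc over the 12 libraries. Here 6 of 10 members had an adjusted p of at most 0.05, all with the larger effect in RS, against 43.1% of 18171 genes tested in either direction. Mrc1 had the largest difference of the members, 4.00 ± 0.42 (adjusted p = 1.92e-04). It was followed by Ctss at 2.20 ± 0.53 (adjusted p = 0.00764) and C1qc at 1.94 ± 0.47 (adjusted p = 0.00760). Cd68 at 1.57 ± 0.41 (adjusted p = 0.0105) also passed. C1qa at 1.58 and Csf1r at 1.26 passed less firmly: with 1 library left out, C1qa was lost in 7 of 12 cases (adjusted p up to 0.0797, without Spc CTRL 1, cKO 1 or 2, or RS CTRL 1 or 2, cKO 1 or 3) and Csf1r in 3 (up to 0.0561, without Spc cKO 2 or RS CTRL 1 or 2). The interaction of Lyz2 was 1.45 ± 0.62 (adjusted p = 0.0763) and that of Cd163 1.17 ± 0.49 (adjusted p = 0.0720), and both passed with DESeq2 or with library size scaling. C1qb at -0.12 ± 0.48 (adjusted p = 0.857) and Adgre1 at -0.03 ± 0.26 (adjusted p = 0.931) did not pass. With library size scaling the sign of each changed, and Adgre1 passed (0.67, adjusted p = 0.0480). With library size scaling the median over all genes moved from -0.13 to 0.58, and the median of the members from 1.51 to 2.23. Of all genes that passed, 44.2% had the larger effect in RS under TMM and 93.7% under library size scaling.

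**Figure D2:**
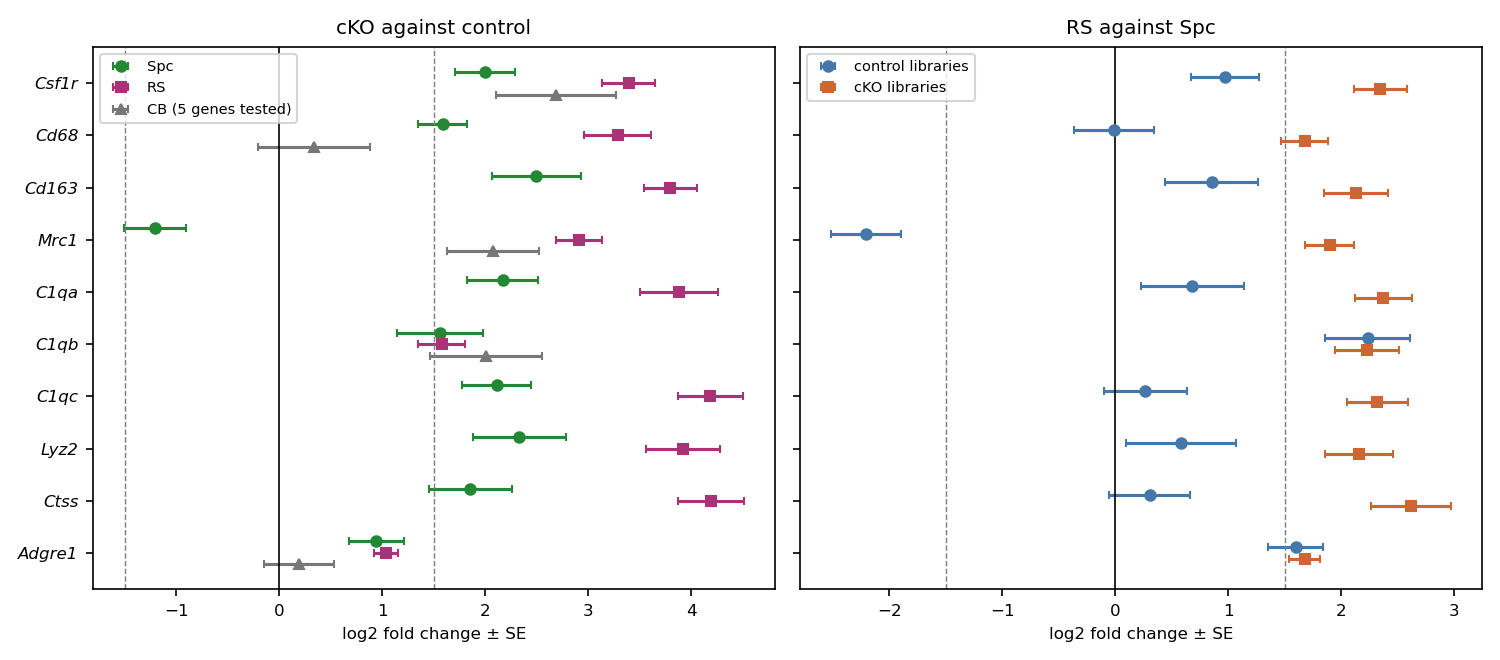
Log2 fold changes with standard errors from edgeR fits, cKO against CTRL on the left and RS against Spc on the right. Dashed lines mark 1.5 in either direction, and CB shows the 5 genes with enough counts. Mrc1 is at -1.21 in Spc and 2.91 in RS, while C1qb and Adgre1 have nearly equal effects in both cell types.

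Between control spermatids and control spermatocytes 3 members were called. In CTRL libraries C1qb and Adgre1 were called higher in RS than in Spc and Mrc1 lower, where 17.0% of the 17046 genes tested were called higher and 17.0% lower. C1qb was at 9.94, 8.41 and 12.4 CPM in RS and at 3.21, 1.46 and 1.31 CPM in Spc, a log2 fold change of 2.23 ± 0.37 (adjusted p = 0.00123). Adgre1 was at 9.91, 8.77 and 9.38 CPM in RS and at 3.80, 2.59 and 2.07 CPM in Spc, and rose by 1.60 ± 0.24 (adjusted p = 7.94e-04). Its call was lost without Spc CTRL library 3 (1.40) and with library size scaling (1.15). Csf1r at 0.97 ± 0.30 (adjusted p = 0.0203) was under the size of a call. The other 6 members, between -0.01 for Cd68 and 0.85 for Cd163, had adjusted p values of 0.0967 to 0.979. In cKO libraries all 10 members were called higher in RS than in Spc, against 3.27% of 17709 genes called higher and 3.79% lower. Their log2 fold changes ran from 1.67 for Cd68 and 1.68 for Adgre1 to 2.62 for Ctss. Mrc1 rose by 1.90 ± 0.22 in this comparison (adjusted p = 6.08e-04), near the others. The cKO libraries of RS are shared with the cKO to CTRL comparison, so these counts are not independent of it.

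Mrc1 was the member that broke the pattern in control spermatocytes. It was at 15.3, 31.8 and 31.9 CPM in control Spc, at 12.1, 9.70 and 15.0 CPM in cKO Spc, at 7.16, 4.71 and 6.88 CPM in control RS and at 48.2, 35.3 and 56.3 CPM in cKO RS. Every cKO Spc library was below every control, as in 17.6% of all genes tested, though cKO library 3 and control library 1 nearly touched. The log2 fold change of -1.21 ± 0.30 (adjusted p = 0.0262) was under the size of a call. Under the alternatives run it stayed between -1.46 and -1.05, and the adjusted p was above 0.05, up to 0.0968, without cKO library 1 or 2 or CTRL library 2 or 3. In control RS against control Spc Mrc1 fell by 2.20 on the log2 scale (SE 0.31, adjusted p = 5.48e-04). It was the one member called lower in that comparison.

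Ratios of counts within a library do not depend on the scaling and show the same break. Mrc1 had 4.24, 13.1 and 17.9 counts per count of Csf1r in control Spc, and 1.03, 1.05 and 1.17 in cKO Spc. In control RS the ratio was 1.36, 1.02 and 0.986, and in cKO RS 0.851, 0.848 and 0.732. Control Spc thus stood apart from the other groups, and its library 1 lay between. That library had the lowest Mrc1 of the 3 controls and the highest level of each of the other 9 members. Among the Sertoli markers, 10 genes of the tubule's supporting cells, the summed level also fell from control to cKO Spc, from 350, 943 and 769 CPM to between 194 and 286 CPM. Of these 10 genes 9 were called lower, against 5.10% of all genes tested. Library 1 was lowest of the controls there too. In RS the Sertoli sum was 70.1 to 84.6 CPM in CTRL and 95.9 to 274 CPM in cKO. No Sertoli marker was at 0 in any Spc or RS group. The part of Sertoli RNA in the Mrc1 count was not tested. Mrc2, the paralogue of Mrc1, was higher in cKO Spc: at 1.92 ± 0.30 CPM in control and 4.70 ± 0.91 CPM in cKO Spc (SD, n = 3) its log2 fold change was 1.19 ± 0.25 (adjusted p = 0.0154).

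Mrc1 had 2 annotated transcripts, and reads that fit both were split between them. Their counts are therefore not independent measures of the pattern. The protein-coding ENSMUST00000028045 took most of the reads, and the retained-intron form ENSMUST00000146168 had between 8.28% and 13.5% of the shared transcript counts in the Spc and RS libraries. The share in control Spc, 11.3%, 10.7% and 9.82%, lay inside that range.

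The 3 chains of C1q are secreted as one protein, and their counts could be set against each other. C1qc had 1.09, 1.39 and 1.07 counts per count of C1qa in control Spc and 1.09, 1.05 and 1.08 in cKO RS, and stayed between 0.750 and 1.39 in all 12 Spc and RS libraries. C1qb per C1qa was 1.27, 0.965 and 1.01 in cKO Spc and 0.916, 1.02 and 1.02 in cKO RS. It was 1.82, 1.59 and 1.42 in control Spc, and 5.74, 7.05 and 3.64 in control RS. In cKO libraries, then, the chains had nearly equal counts, and in control RS C1qb exceeded its partners. Adgre1 showed a related excess, with 1.89, 1.90 and 1.34 counts per count of Csf1r in control RS and 0.322, 0.481 and 0.245 in cKO RS. In control Spc it had 1.05, 1.07 and 1.16 counts per count of Csf1r, and in cKO Spc 0.490, 0.676 and 0.435. Its replicates also varied apart from the others, since cKO RS library 2 was the lowest for the other 9 members and the highest for Adgre1.

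**Figure D3:**
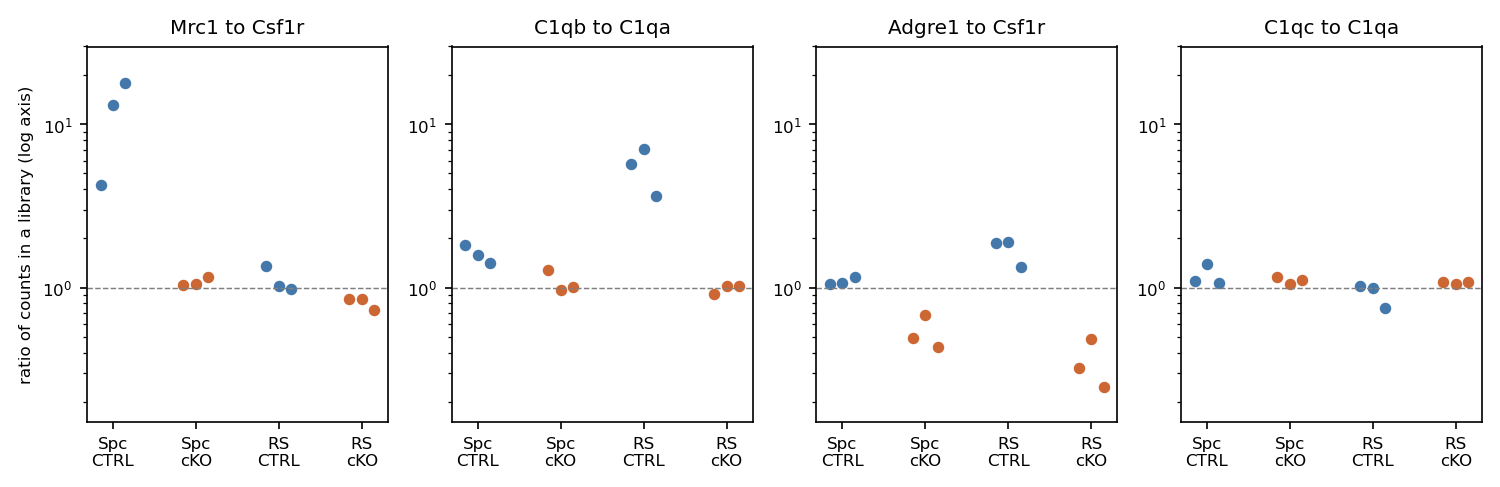
Ratio of raw counts of 2 genes within each library, on log axes, for CTRL (blue) and cKO (orange) libraries of Spc and RS. The dashed line marks equal counts. Mrc1 per Csf1r is 4.24 to 17.9 in control Spc, C1qb per C1qa is 3.64 to 7.05 in control RS, and C1qc per C1qa is 0.750 to 1.39 in these 12 libraries.

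The make-up of the 10 genes' counts therefore differed between groups while the total rose. Their summed level was 37.9, 44.5 and 43.1 CPM in control Spc and 83.5, 55.2 and 84.9 CPM in cKO Spc. Without Mrc1 the sums were 11.2 to 22.6 CPM and 45.5 to 71.4 CPM, so the gap widened when that gene was left out. In RS the sums were 43.5, 34.0 and 53.7 CPM in CTRL and 347, 254 and 418 CPM in cKO. Mrc1 made up 40.4% to 74.0% of the summed counts in control Spc and 12.8% to 17.6% in the other Spc and RS groups. Lyz2 took 19.6% to 27.7% in cKO Spc and 22.3% to 26.3% in cKO RS, against 4.95% to 15.8% in the control groups. C1qb and Adgre1 together led in control RS, with 22.9% to 24.7% and 17.5% to 25.8%. Per kilobase of annotated exon the order in cKO RS was Lyz2 (61.6 CPM per kb), C1qa (29.6), C1qb (27.9), C1qc (17.2), Ctss (15.8), Csf1r (10.1), Cd68 (8.82), Mrc1 (7.31), Adgre1 (5.88) and Cd163 (1.42). The SDs of C1qa and C1qb overlapped there. In control Spc Mrc1 led at 4.13 CPM per kb, in control RS C1qb at 9.43 CPM per kb. Lyz1, a near-identical copy of Lyz2 whose reads can be confused with it, took at most 1.85% of the Lyz1 and Lyz2 transcript counts in any Spc or RS library.

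**Figure D4:**
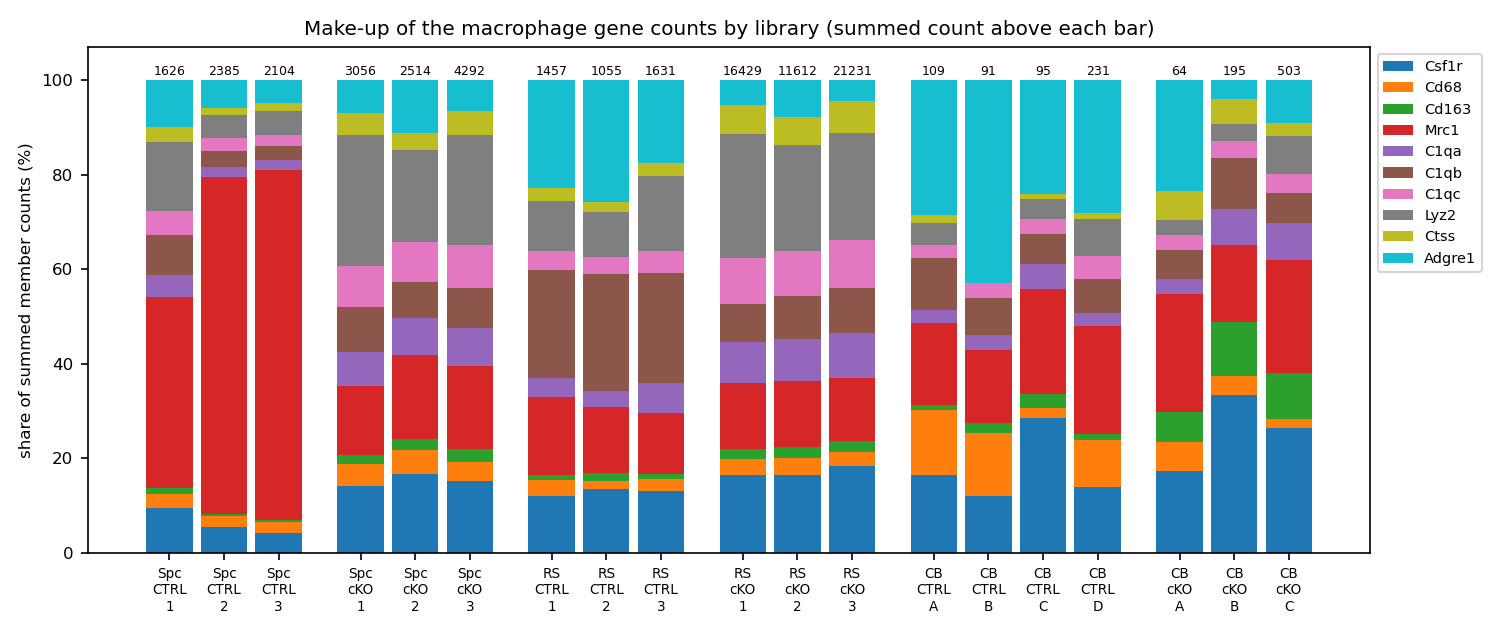
Share of each gene in the summed counts of the 10 genes, in percent, for all 19 libraries, with the summed count above each bar. Mrc1 fills 40.4% to 74.0% of the bar in control Spc, C1qb and Adgre1 are widest in control RS, and CB libraries rest on 64 to 503 counts.

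In chromatoid body libraries the counts were small, and only Csf1r, Cd68, Mrc1, C1qb and Adgre1 passed the filter of 10 counts in 3 libraries. Csf1r, Mrc1 and C1qb were called higher in cKO, where 5.69% of 14051 genes were called higher and 5.64% lower. Csf1r was at 2.90, 29.8 and 23.7 CPM in cKO libraries A, B and C, and at 2.22, 1.62, 6.15 and 2.31 CPM in CTRL libraries A to D. Libraries B and C were far above the controls and library A was among them, so the groups overlapped. The log2 fold change was 2.68 ± 0.58 (adjusted p = 0.00344). Mrc1 was at 4.22, 14.7 and 21.4 CPM against 2.34, 2.06, 4.79 and 3.83 CPM, with 2.08 ± 0.45 (adjusted p = 0.00327). C1qb was at 1.05, 9.64 and 5.70 CPM against 1.48, 1.03, 1.37 and 1.23 CPM, with 2.01 ± 0.54 (adjusted p = 0.0117). For both genes library A again lay within the control range. C1qb was not called without library B (1.48, adjusted p = 0.0594), nor Mrc1 without library C (1.49, adjusted p = 0.0414). Without library A the 3 calls were kept.

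Cd68 and Adgre1 were not called in CB. Adgre1 was at 3.95, 3.67 and 8.19 CPM in cKO and at 3.82, 5.75, 5.24 and 4.70 CPM in CTRL, with a log2 fold change of 0.19 ± 0.34 (adjusted p = 0.687). Cd68 stood at 0.34 ± 0.54 (adjusted p = 0.659), and the sign of each changed when 1 library was left out. The other 5 members had 0 to 49 counts in a library. Cd163 had 4, 22 and 49 counts in cKO and 1, 2, 3 and 3 in CTRL, and Lyz2 had 2, 7 and 41 against 5, 0, 4 and 18. Cd163 was at 1.05, 10.1 and 8.72 CPM against 0.123, 0.295, 0.684 and 0.217 CPM. Lyz2 and Ctss had no count in CTRL library B, which allows up to 0.442 CPM. Without the count filter all 10 members entered the fit and 8 were called higher. Library A stood apart in other cells' genes as well: its summed Leydig markers were at 51.4 CPM, against 335 and 483 CPM in libraries B and C and 19.2 to 72.9 CPM in CTRL.

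Genes whose profile came closest were sought among 14976 genes with a mean of at least 1 CPM over the 12 Spc and RS libraries, by the root mean square difference of centred log2 levels. For the mean profile of the 9 members other than Mrc1 they included Ctsc (0.22), a lysosomal protease, Pf4 (0.23), a chemokine, Ncf1 (0.23), a subunit of the phagocyte oxidase, and F13a1 (0.24), a transglutaminase chain. F13a1 averaged 3.00 CPM in control Spc, 12 in cKO Spc, 6.33 in control RS and 40.4 in cKO RS. For Mrc1 they included Kctd12 (0.14), Trf (0.29), Cxcr4 (0.31) and Naaa (0.32). Kctd12 averaged 13.7 CPM in control Spc, 5.74 in cKO Spc, 2.83 in control RS and 22 in cKO RS, and Trf, encoding transferrin, 11.3, 7.47, 2.50 and 22.5 CPM. Genes were selected on these same libraries, so their likeness in any group follows from the selection. The points share libraries and depth, and these distances are a description.

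The growth factor and the transcription factors of macrophages were taken from a list of 8 genes. In Spc 3 of 8 were called higher, in RS 7 of 8 and in CB all 4 tested, with medians of 1.35, 3.35 and 2.64 on the log2 scale beside -0.01, 0.11 and 0.07 over all genes. Over all genes 3.41%, 14.8% and 5.69% were called higher. For RS against Spc in CTRL 3 of 7 tested were called lower (17.0% of all genes), with a median of -0.25. In cKO 3 of 8 were called higher in RS than in Spc (3.27% of all genes), with a median of 1.09 beside 2.19 for the members. Csf1, a ligand of CSF1R, rose from 1.52 ± 0.44 to 5.78 ± 2.53 CPM in Spc and from 0.383 ± 0.183 to 5.28 ± 3.94 CPM in RS (SD, n = 3). Il34, the other ligand, was not called: it was at 0.616 ± 0.179 CPM in control and 0.922 ± 0.196 CPM in cKO Spc (log2 fold change 0.48 ± 0.34, adjusted p = 0.313), and at 0.579 ± 0.125 and 0.430 ± 0.031 CPM in RS (-0.41 ± 0.32, adjusted p = 0.272). Spi1, which encodes PU.1, went from 0.223 ± 0.123 to 2.74 ± 1.11 CPM in RS, and rose by 3.62 ± 0.47 on the log2 scale.

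Of 10 genes of myeloid signalling and all leukocytes 5 were called higher in Spc, and in RS 9 were called higher and 1 lower. Over all genes 3.41% were called higher in Spc, and in RS 14.8% were called higher and 11.6% lower. Laptm5, a lysosomal protein of leukocytes, rose by 2.34 in Spc and 3.86 in RS, and Ptprc, encoding CD45, by 1.51 and 2.97. The gene called lower in RS was Aif1, the IBA1 gene often used to stain macrophages. It was at 540 ± 63.0 CPM in control RS and 84.6 ± 18.6 CPM in cKO RS, a level far above that of any member, and fell by 2.66 on the log2 scale. Of 18 Fc, scavenger and pattern receptors 15 were tested in RS, with 12 called higher and 1 lower. Msr1, a scavenger receptor, was that gene, at 26.2 ± 3.11 CPM in control and 8.78 ± 1.19 CPM in cKO RS, and fell by 1.56. Stab1, the scavenger receptor stabilin, rose by 2.20 in Spc, 3.74 in RS and 3.43 in CB. Fcgr3, an Fc receptor, had group means of 64.9 to 91.5 CPM in Spc and RS and stood at 0.19 ± 0.68 in Spc and 0.41 ± 0.64 in RS. In CB 2 of 5 tested receptors were called higher, against 5.69% of all genes.

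MHC class II molecules present peptides to T cells. Of 7 MHC class II genes 1 of 6 tested was called higher in Spc, 5 of 7 in RS and 2 of 4 in CB. Over all genes the shares were 3.41%, 14.8% and 5.69%. Cd74, the invariant chain, was at 4.78 ± 1.54 CPM in control and 95.8 ± 60.3 CPM in cKO RS, and rose by 4.34 ± 0.52 (adjusted p = 1.36e-04). H2-DMa, which loads peptides onto class II molecules, stood at -0.14 ± 0.21 in RS.

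C1q acts with proteases and regulators, of which 10 were listed. Of 8 tested 4 were called higher in Spc, of 9 tested 7 in RS and of 5 tested 4 in CB. Over all genes the shares were 3.41%, 14.8% and 5.69%. C1ra and C1s1, the proteases that C1q activates, rose by 1.69 and 1.79 in Spc and by 4.12 and 3.41 in RS, and Serping1, their inhibitor, by 2.52 and 3.02. C3, the central component, rose from 4.29 ± 3.20 to 44.2 ± 24.1 CPM in Spc. In cKO libraries 2 of 10 of these genes were called higher in RS than in Spc, where 3.27% of all genes were, with a median of 0.20 beside 2.19 for the members. The difference between the lists was not tested. These genes are also made by cells other than macrophages.

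Lysosomal genes are used by every cell. Of 14 tested 2 were called higher and 1 lower in Spc, where 3.41% and 5.10% of all genes were, so that the 1 lower is near the share over all genes. In RS 10 of 14 were called higher (14.8% of all genes) and in CB 6 of 11 (5.69%). Ctsl, a protease that Sertoli cells secrete, was the one called lower, at 158 ± 72.5 CPM in control and 54.8 ± 12.2 CPM in cKO Spc, where it fell by 1.63. In RS it stood at 1.37 ± 0.21, so its signs were those of Mrc1.

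Markers of other cells differed between cKO and CTRL as well, in directions that varied between lists and cell types. Over all genes tested 3.41%, 14.8% and 5.69% were called higher in Spc, RS and CB, and 5.10%, 11.6% and 5.64% lower. Of 9 Leydig markers 3 were called higher in Spc, all 8 tested in RS and all 8 tested in CB, and their summed level was 136 to 449 CPM in control and 632 to 1309 CPM in cKO Spc, 11.4 to 12.1 and 36.6 to 368 CPM in RS, and 19.2 to 72.9 and 51.4 to 483 CPM in CB. In cKO libraries, however, 7 of 9 Leydig markers were called lower in RS than in Spc, against 3.79% of all genes. All members were called higher in that comparison. Of 5 erythroid markers 4 were called higher in cKO RS, with sums of 22.5 to 26.2 CPM in control and 67.7 to 250 CPM in cKO. Among them Hba-a1 and Hba-a2 had the same count in every library and so count the same reads. In Spc the erythroid sum was 10.9 to 20.8 CPM in control and 1.58 to 3.40 CPM in cKO. In control Spc it was mostly Alas2, the enzyme of haem synthesis in red cells. Alas2 was called lower, at 9.20, 18.5 and 19.4 CPM in control and 0.711, 1.05 and 1.44 CPM in cKO Spc. The other 3 genes tested there were not called. Hba-a1 was at 0.396, 0.168 and 0.410 CPM in control and 0.683, 0.154 and 0.613 CPM in cKO Spc. Of 6 T and NK cell markers 4 were tested in RS, with 3 called higher and 1 lower. Their sum was 7.73 to 16.2 CPM in control and 3.86 to 15 CPM in cKO RS. In control RS this sum was mostly Cd3d, the gene called lower, at 6.506, 11.02 and 15.67 CPM. In cKO RS Cd3d was at 0.9702, 0.9203 and 1.91 CPM. Each of the other genes of this list had every cKO RS library above every control library. Cd4, for example, was at 0.9848, 0.6447 and 0.3621 CPM in control and 3.037, 1.556 and 3.957 CPM in cKO RS. The 4 mast cell markers were summed at most to 0.370 CPM in any library, and the neutrophil genes S100a8 and S100a9 had no count in cKO Spc or in any CB group. In cKO RS S100a8 had 10, 0 and 7 counts and S100a9 had 21, 0 and 12, against 0, 0 and 1 and none in control RS. Of 5 neutrophil genes 2 were tested in RS, with 1 called higher. Csf3r was at 0.1791, 0.06447 and 0.2304 CPM in control and 2.004, 1.096 and 2.481 CPM in cKO RS. Mpo went the other way, from 5.192, 4.867 and 4.97 CPM to 2.215, 2.257 and 2.146 CPM. The neutrophil sum, mostly Mpo in control RS, was 4.932 to 5.431 CPM in control and 3.506 to 5.06 CPM in cKO RS. Of 9 late spermatid markers all were called lower in Spc, RS and CB, from 29680 to 39390 CPM in control RS to 1962 to 2022 CPM in cKO RS. Of 6 peritubular myoid genes 6, 6 and 5 were tested in Spc, RS and CB. Of 8 endothelial genes 7, 7 and 6 were tested, and of 4 B cell genes 1, 3 and 1. Each of these lists had at most 1 gene called higher and at most 2 called lower in each comparison of cKO with CTRL. The peritubular myoid sum, 387 to 469 CPM in control and 50.3 to 70.6 CPM in cKO RS, was mostly Actg2, a smooth muscle actin, at 454, 377 and 458 CPM in control and 47.3, 59.8 and 39.1 CPM in cKO. Acta2, the actin usual for these cells, was at 2.95, 2.58 and 3.09 CPM in control and 3.12, 3.64 and 4.12 CPM in cKO RS. The endothelial sum was 57.6 to 76.1 CPM in control and 55.4 to 56.8 CPM in cKO RS. In Spc it was 20.6 to 31.6 and 46.5 to 49.2 CPM, and Stab2, a scavenger receptor and the one gene of the list called higher there, went from 15.2, 9.53 and 11.6 CPM to 37.4, 38.0 and 37.2 CPM. The part of these cells, or of the missing late spermatid RNA, in the member levels was not tested.

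Small RNA libraries of RS (3 cKO, 3 CTRL) and Spc (5 cKO, 5 CTRL) gave a readout of another kind. The methods state that they came from the samples that also served for RNA-seq, which had 3 replicates per genotype. The 5 Spc libraries of a genotype may therefore include repeat preparations of the same samples, which the labels do not settle. The miRNAs shown were chosen after their values were seen, so no test is given. miR-511-3p is encoded in an intron of Mrc1, and miR-223-3p and miR-142a-3p are miRNAs of myeloid and blood cells. The RefSeq sequences follow, 5′ to 3′, with the seed, bases 2 to 8, in capitals.
miR-511-3p: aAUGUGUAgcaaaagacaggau
miR-223-3p: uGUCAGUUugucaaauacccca
miR-142a-3p: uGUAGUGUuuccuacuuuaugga
The seeds all differ. miR-223-3p was at 1960, 337 and 2647 CPM of all miRNA counts in cKO RS and at 63.5, 118 and 150 in control RS. In Spc it was at 127, 1999, 638, 99.6 and 148 in cKO and at 21.5, 30.0, 76.7, 4.36 and 12.1 in control libraries. The groups did not overlap in either cell type, but the share of all miRNAs without overlap was not computed. miR-142a-3p was at 6488 to 15590 CPM in cKO RS and 4109 to 4217 in control RS, and at 3291 to 11620 and 2324 to 3214 in Spc. miR-511-3p was near the limit of detection, with 16, 1 and 8 counts in cKO RS and 0, 0 and 1 in control RS. In Spc it had 2, 3, 2, 0 and 0 counts in cKO and 3, 4, 4, 1 and 1 in control libraries. A count of 0 allowed 18.5 to 24.9 CPM in those libraries, so the intronic miRNA was too sparse to compare with the Mrc1 mRNA.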

How the data were processed

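Per the labels and the methods, the authors removed adapters (cutadapt 2.8), mapped reads to GRCm38 (STAR, 2.7.1a in the submitters' notes) and counted gene rows with TEtranscripts in reverse stranded mode. These raw counts were deposited per library. The authors also deposited estimated counts per Ensembl transcript (featureCounts 2.0.1, shared reads split), which were summed per gene and rounded as an alternative, and raw counts per miRNA.

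Here edgeR 4.0.16 (R 4.3.3) fitted a quasi-likelihood model with TMM scaling to genes with at least 10 counts in at least 3 libraries, with two-sided p-values adjusted by Benjamini-Hochberg over every gene in the fit. Rows of transposable elements stayed out. The scripts were tested on simulated data. Profiles used log2(CPM + 0.1). Intervals and floors (3 counts) cover counting error only. CB and small RNA columns give the genotype and numbers that are not those of the titles, so letters name those libraries. The control CB columns carry 2 name forms (MCTRL for libraries A and D, MVHCTRL for B and C), whose difference is not explained in the sources used here. The methods call the 3 Spc and RS samples of a genotype biological replicates. The sources differ on how many testes went into each, and p-values measure the spread between these samples. Alternatives were DESeq2 1.42.0, library size scaling, no filter, transcript sums, the replicate number as a block and leaving out each library. The named genes are all members, the companion lists, the 5 nearest profiles per pattern, Lyz1 and Mrc2. The members and lists were chosen with earlier results of these data known. The piRNA, repeat and tRNA tables were not used here. Some genes that the rule names are not reported here.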

Additional observations from a re-analysis of the deposited data

Results flagged for a closer look

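For 6 of the 10 members the interaction test of edgeR gave an adjusted p of at most 0.05 for the difference between the effects in both cell types. Of all genes tested 43.1% passed in either direction, and 44.2% of those had the larger effect in RS. The log2 fold change in RS exceeded that in Spc by 4.00 for Mrc1, 2.20 for Ctss, 1.94 for C1qc, 1.58 for C1qa, 1.57 for Cd68 and 1.26 for Csf1r. With 1 of the 12 libraries left out, C1qa was lost in 7 cases and Csf1r in 3. Mrc1 was the only one of the 10 members whose fitted effect had opposite signs in Spc and RS.

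Of 16 groups of 4 or 5 libraries examined for a value far from the rest (the members in control CB and the 3 miRNAs in Spc), 6 had one. Chance alone gives about 1 in 20 for groups chosen without regard to their values, but the miRNAs were chosen after their values were seen and several CB values rest on a few counts in the same 4 libraries, so the 6 cannot be read against that rate. In control CB, library C was far above the other 3 for Csf1r (6.15 CPM) and C1qa (1.14 CPM) and far below them for Cd68 (0.456 CPM), on 27, 5 and 2 counts. Ctss was at 0 CPM in control CB library B, where the other 3 libraries had 1 to 3 counts. In cKO Spc, small RNA library B was far above the other 4 for miR-223-3p (1999 CPM of miRNA counts) and miR-142a-3p (11620 CPM). Without it both miRNAs still had every cKO Spc library above every control, for which no share over all miRNAs was computed.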

How the results depend on the processing

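Over the alternatives run, single-gene results kept direction and call in 102 of 110 cases for cKO against CTRL in Spc, all but 3 of 110 in RS and 48 of 52 in CB, in 102 of 110 for RS against Spc in CTRL, in 110 of 110 in cKO, and in 146 of 180 for the interaction; the cause was not tested where they did not. With 1 library left out, the members called higher numbered 4 to 8 in Spc (4 without cKO library 1), 8 to 9 in RS, 2 to 3 in CB, 1 to 2 for RS against Spc in CTRL and 10 to 10 in cKO, and 4 to 7 passed the interaction test. With no count filter 8 members were called in CB, since 10 instead of 5 were fitted, and 1234 genes were called higher in all against 800. Library size scaling left 1 member called higher for RS against Spc in CTRL. It took the all-gene median from 0.11 to 0.73 in RS and from -0.08 to -0.54 for RS against Spc in CTRL, the share of called genes that were higher from 56.2% to 82.2% in RS, 50.3% to 38.7% in CB, 49.9% to 20.6% for RS against Spc in CTRL, 46.3% to 60.6% in cKO and 44.2% to 93.7% for the interaction, and the genes called higher and lower in RS from 2597 and 2021 to 4991 and 1080, for RS against Spc in CTRL from 2895 and 2901 to 1130 and 4363, and those passing the interaction test from 3459 and 4375 to 8087 and 545. The log2 ratio of summed member levels in Spc was 0.81, and 0.49 without Lyz2 and Ctss or 2.05 without Mrc1; in RS it was 2.95, and 3.58 with library size scaling. Signs turned for members near 0. For RS against Spc in CTRL, Cd68 was at 0.054 with DESeq2 and -0.20 to 0.31 with 1 library left out, C1qc at -0.19 and Ctss at -0.15 with library size scaling, and C1qc at -0.034 to 0.56 with 1 library left out. In CB, Cd68 ran from -0.14 to 0.57 and Adgre1 from -0.33 to 0.37 with 1 library left out. For the interaction, Adgre1 was at 0.031 with DESeq2, 0.67 with library size scaling (adjusted p = 0.0480), 0.011 with no count filter, 0.040 with transcript sums and -0.30 to 0.15 with 1 library left out, and C1qb at 0.59 with library size scaling and -0.63 to 0.11 with 1 library left out. Replicate numbers did not pair the samples: deviations of same-numbered libraries correlated between -0.267 and 0.603 for Spc with RS and between -0.184 and 0.332 for cKO with CTRL, and 2 of 6 libraries correlated best with their own number in each. With the replicate number as a block 8 members were called higher in Spc and 9 in RS, 2 higher and 1 lower for RS against Spc in CTRL and 10 higher in cKO, and 7 passed the interaction test, Lyz2 being added (1.48, adjusted p = 0.0242, and 1.47, adjusted p = 0.0399, with blocks within genotype, chosen after seeing the data). No paired analysis was possible in CB because the numbers in the column names are not those of the sample titles. Depth limits CB, where a count of 3 stands for 0.217 to 1.38 CPM.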
